A study of Mus musculus with 12 samples.

Results

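A pair of MC38 lines that express different splice isoforms of CEACAM1 was compared directly, the line with the long isoform (CEACAM1-L) against the line with the short isoform (CEACAM1-S). MC38 is a metastatic mouse colon cancer line of C57BL/6 origin, and the labels describe the parent cells as lacking CEACAM1. Every array titled for either line entered the comparison, 4 for CEACAM1-L and 4 for CEACAM1-S, out of 12 in the series. The other 4 arrays were of control MC38 cells, which the labels call devoid of CEACAM1 and which served as a reference level. Cells of all 3 groups were grown for 72 h in medium with 10% serum and selection antibiotics, and total RNA was hybridised to Illumina mouse bead arrays, 1 array per sample. The labels do not say whether a line is 1 clone or a pool, what vector and promoter drive the isoform, or whether the 4 samples of a line were separate cultures, so the p-values rest on the spread among these samples alone, which may be technical. Isoform, Ceacam1 level and cell line cannot be told apart in this design.

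CEACAM1 is a homophilic adhesion receptor of the immunoglobulin superfamily. Alternative splicing of 1 cytoplasmic exon gives a long tail with immunoreceptor tyrosine-based inhibitory motifs, which can recruit the phosphatases SHP-1 and SHP-2 when phosphorylated, or a short tail without these motifs that binds cytoskeletal proteins and calmodulin. In intestinal epithelium the protein is known as a regulator of proliferation and adhesion, and the ratio of its isoforms is known to shift in colon tumours. The question asked here was which genes set the line with the long tail apart from the line with the short tail.

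The median raw signal of an array was 86.6 to 103 units, and each CEACAM1-L or CEACAM1-S array detected 15010 to 16071 of its 45281 probes. A probe counted as detected on an array where its detection p-value was under 0.05, and 15282 probes were detected on at least 4 of the 8 arrays. Values are log2 of background-corrected, quantile-normalized signal, and each difference was tested with limma's moderated test, adjusted over all kept probes by Benjamini-Hochberg, with a threshold of 0.05. Signed log2 differences are CEACAM1-L minus CEACAM1-S, with the standard error of the fit, and group means carry the SD over 4 arrays.

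An array of each line lay apart from its own line. To place an array, genes were taken that differed by at least 1.5 log2 units between the other arrays of the lines with a gap of over 0.5 units, and its position was read between its own line (0%) and the other line (100%). CEACAM1-S 2 lay a median of 33.0% of the way towards CEACAM1-L in 53 genes higher in CEACAM1-L, and beyond the other 3 arrays of its line in 50 of them. In 30 genes higher in CEACAM1-S it lay 20.9% of the way, beyond its line in 26. CEACAM1-L 4 lay 19.5% of the way towards CEACAM1-S in 48 genes higher in CEACAM1-L and 33.4% in 33 genes higher in CEACAM1-S, beyond its own line in 44 and 28. The other 6 arrays had medians from −18.8% to −0.279%. Across genes, CEACAM1-L 4 and CEACAM1-S 2 correlated at 0.982, the highest value between the lines, against 0.9854 to 0.9911 within CEACAM1-L and 0.9845 to 0.9925 within CEACAM1-S. Both arrays stayed in the fit, and values without the pair are given beside main counts and many of the genes. The pair was picked for lying towards the other line. Larger differences without it are therefore favoured by that choice and are no independent evidence. What places these arrays between the lines was not tested.

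**Figure D1:**
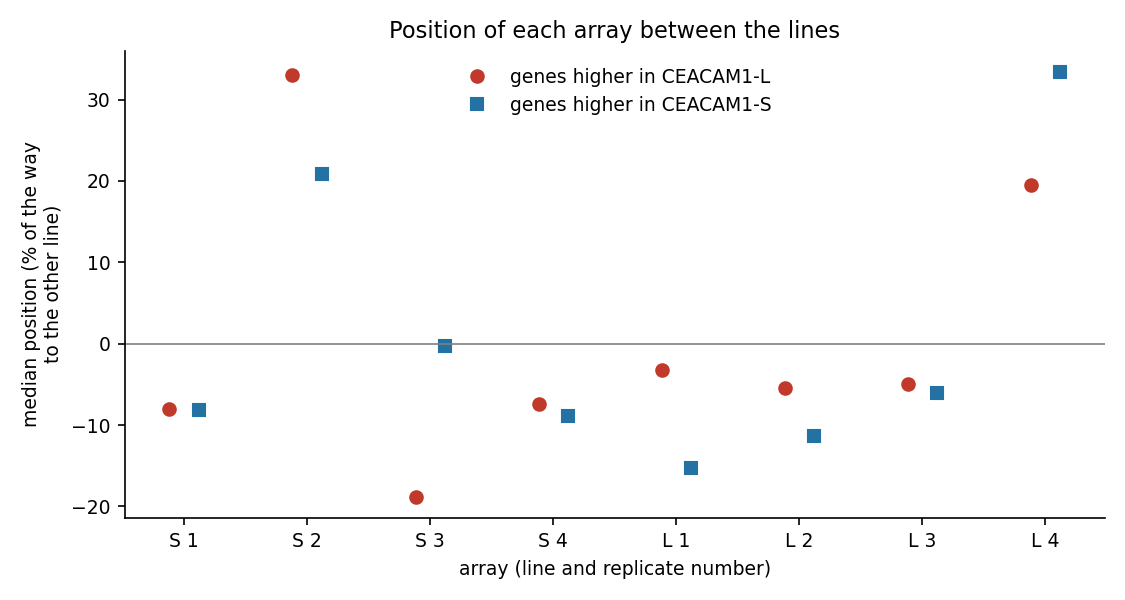
Median position of each of the 8 arrays between its own line (0%) and the other line (100%), computed with the array itself left out, for genes higher in CEACAM1-L (circles) and genes higher in CEACAM1-S (squares). CEACAM1-S 2 and CEACAM1-L 4 sit between 19.5% and 33.4%, and the other 6 arrays sit at or below −0.279%.

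Ceacam1 itself, on chromosome 7, checks the labels, and it was higher in the CEACAM1-S line. Its brightest probe read 6.7, 6.41, 6.50 and 6.58 on the CEACAM1-L arrays and 8.58, 7.81, 8.24 and 8.68 on the CEACAM1-S arrays. The lines did not overlap, and control cells lay below both at 4.92 ± 0.06 (SD, n = 4), though this probe was detected on all 4 control arrays, where the other Ceacam1 probes were detected on none. Ceacam1 was 3.42-fold higher in CEACAM1-S cells, by 1.78 ± 0.17 log2 units (SE, limma adjusted p = 1.14e-07), and by 1.96 without CEACAM1-S 2 and CEACAM1-L 4. On this probe CEACAM1-L 4 lay within its own line. Of its other 3 probes, a pair was detected on all 8 arrays and gave 2.07 and 1.09 log2 units higher in CEACAM1-S cells (adjusted p = 1.91e-08 and 0.000212), and the last was detected on none. On the probe with the smallest of these differences CEACAM1-L 4 was the highest of its line, at 5.93 against 5.20 to 5.37, below the CEACAM1-S arrays at 6.26 to 6.91. The exons under the probes were not analysed here, and the values are of Ceacam1 as a whole, not of an isoform.

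Over all kept probes, 3600 differed between the lines (23.6%), 1829 higher in CEACAM1-L and 1771 higher in CEACAM1-S. Of these, 380 (2.49% of kept probes) also differed by at least 2-fold. With each gene read by its brightest kept probe, 2260 of 8678 genes differed (26.0%), 1152 higher in CEACAM1-L (13.3%) and 1108 higher in CEACAM1-S (12.8%). At least 2-fold differences were seen for 254 genes (2.93%), 142 higher in CEACAM1-L and 112 higher in CEACAM1-S. For 2323 genes (26.8%) all 4 arrays of 1 line lay above all 4 of the other. The median difference over all genes was −0.01 and the median size of a difference 0.224 log2 units, so most differences were small. Without CEACAM1-S 2 and CEACAM1-L 4, 2288 genes differed, among them 1984 of the 2260. The median size of the at least 2-fold differences went from 1.21 to 1.37, a rise that the choice of these arrays favours. Where arrays were scaled to a common median in place of quantile normalization, 275 genes passed, and no gene list described here then had more than 4 members past the threshold in either direction.

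The genes with the largest excess in CEACAM1-L cells were of several kinds. C2, complement component 2, a serine protease of the classical pathway, read 9.57, 9.65, 9.43 and 9.25 on the CEACAM1-L arrays and 4.93, 7.14, 4.76 and 5.17 on the CEACAM1-S arrays, 3 of which detected it. The lines stood far apart, with CEACAM1-S 2 high for its line and control between them at 6.81. C2 was 15.7-fold higher in CEACAM1-L cells, by 3.97 ± 0.31 log2 units (SE, limma adjusted p = 5.01e-09), and by 4.60 without CEACAM1-S 2 and CEACAM1-L 4. Prxl2a, a peroxiredoxin-like redox protein, read 10.19, 10.11, 9.99 and 9.59 in CEACAM1-L cells and 6.24, 8.27, 5.81 and 6.68 in CEACAM1-S cells, a difference of 3.22 ± 0.31 (adjusted p = 7.72e-08), and of 3.86 without CEACAM1-S 2 and CEACAM1-L 4. Its other kept probe differed in the same direction by 2.50.

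Serpinb9f and Serpinb9g are serine protease inhibitors of the family of the mouse granzyme B inhibitor, and lie in a cluster of near-identical copies on chromosome 13, so a probe may read more than 1 of them. Serpinb9f read 7.69, 8.0, 7.90 and 6.91 on the CEACAM1-L arrays and 4.31, 6.28, 4.27 and 4.49 on the CEACAM1-S arrays, of which 1 detected it. Serpinb9g read 7.98, 8.24, 8.25 and 7.58 against 4.54, 6.72, 4.92 and 4.57, with 2 CEACAM1-S arrays detecting it. For both, the high CEACAM1-S array was CEACAM1-S 2 and the low CEACAM1-L array was CEACAM1-L 4. The log2 differences were 2.79 ± 0.31 for Serpinb9f and 2.83 ± 0.32 for Serpinb9g (SE, adjusted p = 7.43e-07 and 6.34e-07), and 3.5 and 3.48 without those arrays. Of 15 members of the serpin B6 and B9 cluster on the array, 3 were tested. All 3 were higher in CEACAM1-L cells (13.3% of all genes were), Serpinb6a by 0.31 (adjusted p = 0.0229). Detection on the CEACAM1-L arrays, where they were high, was enough for Serpinb9f and Serpinb9g to be kept. With only probes detected on all 8 arrays, 1 member was tested, and without a detection filter 3 of 15 were higher, with a median of −0.02.

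Cldn4, a tight junction claudin of epithelia, read 7.47, 7.71, 7.79 and 7.33 in CEACAM1-L cells and 4.55, 5.60, 4.33 and 4.82 in CEACAM1-S cells. It was detected on 2 of 4 CEACAM1-S arrays, and control cells lay with CEACAM1-S at 4.52. The difference was 2.75 ± 0.22 (SE, limma adjusted p = 6.3e-09), and 3.09 without the arrays that stood apart. The remaining genes of the 12 largest were Stbd1 (a glycogen-binding protein, 2.52), Olfm1 (olfactomedin 1, a secreted glycoprotein, 2.41), Gata6 (a zinc finger transcription factor of endoderm, 2.35), Ep300 (a histone acetyltransferase, 2.25), Neto2 (an auxiliary subunit of kainate receptors, 2.25), Dbp (2.23) and Vopp1 (2.08). All CEACAM1-L arrays but no CEACAM1-S array detected Vopp1, whose signal in CEACAM1-L cells was at least 3.33-fold higher. Ep300 had another kept probe, detected on no CEACAM1-S array, that differed by 0.96.

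In the other direction the largest gene was Napsa, napsin A, an aspartic protease best known from lung and kidney. Napsa read 8.62, 8.17, 8.86 and 8.41 on the CEACAM1-S arrays and 5.06, 4.44, 4.38 and 5.20 on the CEACAM1-L arrays, 2 of which detected it. Control cells lay near CEACAM1-L at 5.42. Napsa was 13.4-fold higher in CEACAM1-S cells, by 3.74 ± 0.20 log2 units (SE, limma adjusted p = 1.32e-11), and its other 2 kept probes gave 3.26 and 2.37. Mfsd6, a membrane protein of the major facilitator family, was higher in CEACAM1-S cells by 2.81, while its other kept probe gave 0.55 and did not pass (adjusted p = 0.0545).

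Csn3, kappa-casein, a milk protein gene, read 10.08, 9.73, 10.03 and 10.23 in CEACAM1-S cells and 7.24, 7.17, 7.15 and 8.59 in CEACAM1-L cells. Nnmt, nicotinamide N-methyltransferase, read 11.50, 10.99, 11.45 and 11.35 against 8.60, 8.76, 8.66 and 10.01. For both, the lines did not overlap and CEACAM1-L 4 was the array nearest the other line. The differences were 2.48 ± 0.21 for Csn3 and 2.31 ± 0.20 for Nnmt (SE, adjusted p = 1.32e-08 and 1.78e-08), and 2.93 and 2.76 without CEACAM1-S 2 and CEACAM1-L 4. Dkk3, a secreted glycoprotein of the dickkopf family, read 9.26, 9.19, 9.42 and 9.42 in CEACAM1-S cells and 7.46, 7.31, 7.57 and 7.74 in CEACAM1-L cells, with CEACAM1-L 4 close to its own line. Control Dkk3 lay with CEACAM1-S at 9.51, and the lines differed by 1.80 ± 0.12 (adjusted p = 4.6e-10). Others of the largest were Btbd19 (2.08), Pla1a (a phosphatidylserine phospholipase, 1.95), Cdh26 (a cadherin, 1.94), Stra6 (the cell-surface receptor for retinol-binding protein, 1.83), Pes1 (1.81) and Kctd15 (1.81), all higher in CEACAM1-S cells.

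**Figure D2:**
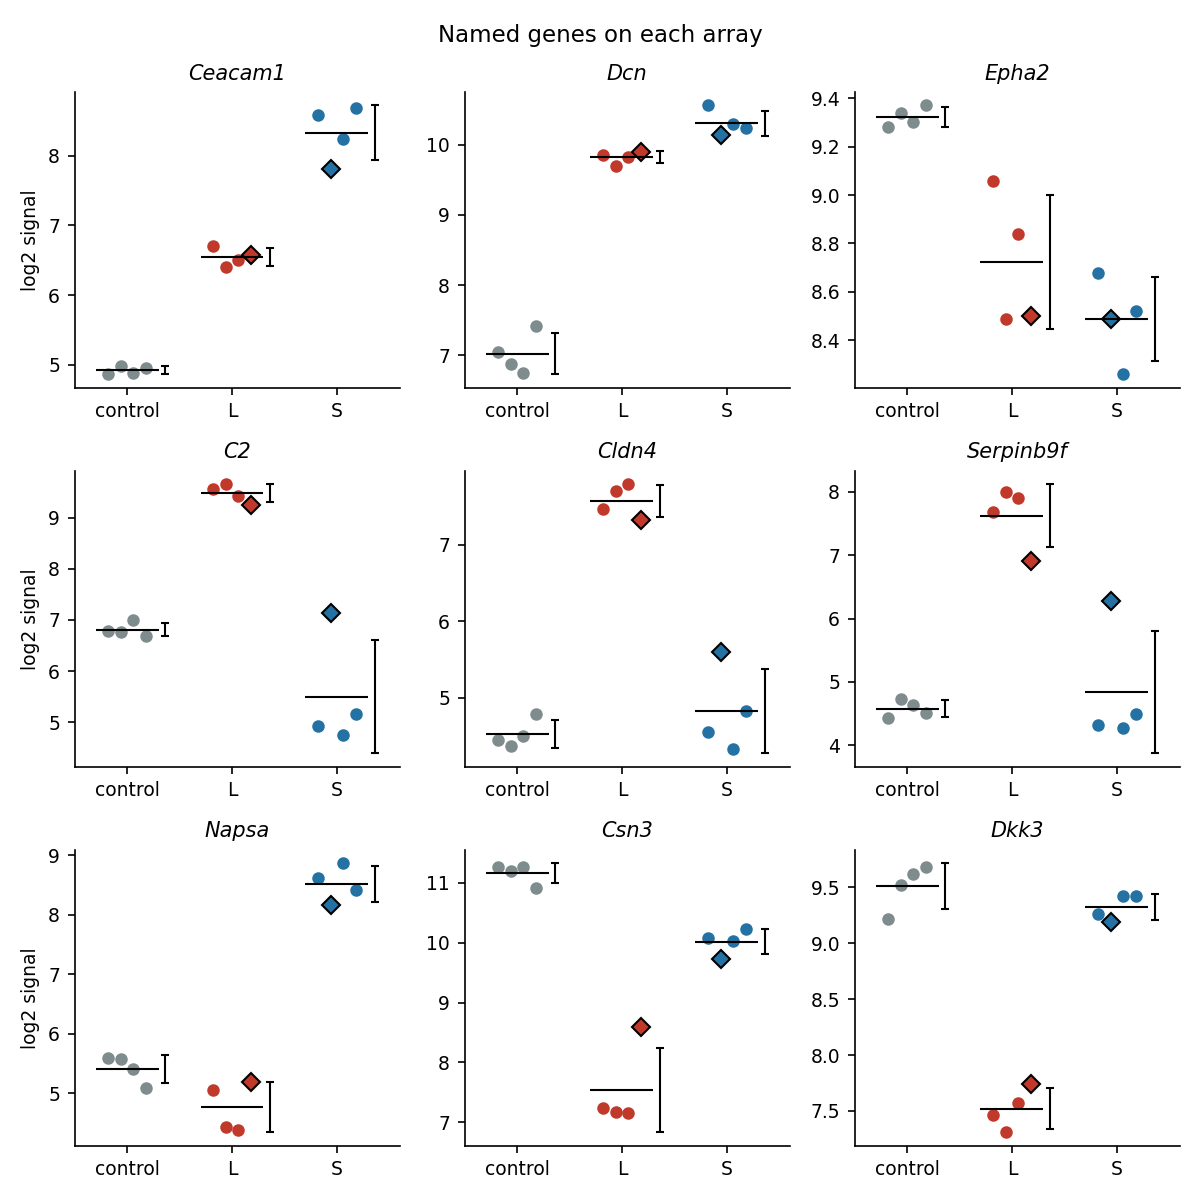
Log2 signal of 9 genes on each array of control, CEACAM1-L (L) and CEACAM1-S (S) cells, 4 arrays a group; each panel has its own axis, which does not start at 0. Horizontal lines are means, bars are SDs beside them, and diamonds mark CEACAM1-L 4 and CEACAM1-S 2. CEACAM1-S 2 is the highest CEACAM1-S array for C2 and Serpinb9f, at 7.14 and 6.28.

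The series title names decorin and EphA2, so these genes may have been chosen on these samples and are no independent evidence. Dcn, the small leucine-rich proteoglycan decorin, read 9.86, 9.70, 9.83 and 9.90 in CEACAM1-L cells and 10.56, 10.14, 10.29 and 10.24 in CEACAM1-S cells. The lines did not overlap, both far above control at 7.02 ± 0.29, and Dcn was higher in CEACAM1-S cells by 0.48 ± 0.13 (SE, limma adjusted p = 0.00798). It missed the threshold where arrays were scaled to the median (−0.62, adjusted p = 0.483) and on the 2 arrays per line of lower maximum signal (−0.33, adjusted p = 0.307), and the other kept probe of Dcn, at −0.50, did not pass either (adjusted p = 0.0684). Epha2, a kinase receptor that binds membrane-anchored ephrin-A proteins, read 9.06, 8.49, 8.84 and 8.5 in CEACAM1-L cells and 8.68, 8.49, 8.26 and 8.52 in CEACAM1-S cells. The lines overlapped for Epha2 and the difference of 0.24 ± 0.13 did not pass (adjusted p = 0.188). Of 8 tested Eph receptors and ephrins, 4 were higher in CEACAM1-L cells (13.3% of all genes were) and 0 in CEACAM1-S cells (12.8%). These were the ligands Efna1 (1.01), Efna4 (0.57) and Efna5 (0.50) and the receptor Ephb4 (0.59), and the median of the 8 was 0.37.

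Proteins known to act on or with the CEACAM1 tail were compared next, since the lines differ in that tail. Of 18 tested, 2 were higher in CEACAM1-L cells and 5 in CEACAM1-S cells (13.3% and 12.8% of all genes were), with a median of −0.06. Off chromosomes 5 and 9, whose genes leaned to 1 line as described further on, the counts were 1 and 1 of 11. Ptpn6, which encodes SHP-1, the phosphatase recruited by the long tail, read 5.45, 5.87, 5.61 and 6.02 in CEACAM1-L cells and 6.62, 6.85, 7.0 and 7.06 in CEACAM1-S cells. The lines did not overlap, and Ptpn6 was 2.21-fold higher in CEACAM1-S cells, by 1.15 ± 0.18 (SE, limma adjusted p = 5.92e-05). Csk, the kinase that restrains Src family kinases, was higher in CEACAM1-S cells by 0.66 (adjusted p = 0.000113), and Tpm1, an actin-binding tropomyosin, differed by −0.48 (adjusted p = 0.000168). Pxn, the focal adhesion adaptor paxillin, was higher in CEACAM1-L cells by 0.49 (adjusted p = 0.00431). Within the CEACAM family, only 2 of 21 members on the array were tested, Ceacam1 and the pregnancy-specific glycoprotein gene Psg23, which was higher in CEACAM1-L cells by 0.45 (adjusted p = 0.0318).

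Clock genes that differed were nearly all higher in CEACAM1-L cells. In the circadian oscillator the transcription factors CLOCK and BMAL1 bind E-boxes and drive the Per and Cry repressors and the REV-ERB receptors, which feed back on them, while the PAR bZIP factors DBP, TEF and HLF bind D-boxes. Of 16 tested clock genes, 8 were higher in CEACAM1-L cells (13.3% of all genes were) and 1 in CEACAM1-S cells (12.8%), and the median difference was 0.41. Dbp read 12.15, 11.91, 12.04 and 11.76 in CEACAM1-L cells and 9.46, 10.64, 9.45 and 9.40 in CEACAM1-S cells. Only CEACAM1-S 2 left its group, control lay lower at 8.27, and Dbp was 4.69-fold higher in CEACAM1-L cells (2.23 ± 0.19, adjusted p = 1.91e-08, and 2.6 without the arrays that stood apart). Nr1d1, the REV-ERBα receptor, read 7.78, 6.99, 7.43 and 7.08 against 5.47, 6.13, 5.26 and 5.51, without overlap, a difference of 1.73 ± 0.20 (adjusted p = 1.16e-06), which was 1.99 without them. Per1, a repressor of the oscillator, read 7.14, 7.21, 7.27 and 7.36 against 6.22, 6.32, 6.02 and 6.14, without overlap, and CEACAM1-L 4 was the highest of its line. Per1 differed by 1.07 ± 0.15 (adjusted p = 8.71e-06), and its other kept probes gave 0.69, which passed, and 0.39, which did not (adjusted p = 0.114).

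Further clock genes higher in CEACAM1-L cells were Ciart, a repressor of CLOCK and BMAL1 (0.79), Per2 (0.75), Tef (0.74), the casein kinase gene Csnk1e (0.70) and Per3 (0.56). The activator genes Arntl and Clock did not pass. Arntl, which encodes BMAL1, had means of 5.51 in CEACAM1-L cells and 6.00 in CEACAM1-S cells (−0.49, adjusted p = 0.0581). Clock leaned the other way, towards CEACAM1-L cells, by 0.21 (adjusted p = 0.265). The F-box gene Fbxl21 was the member higher in CEACAM1-S cells (−0.58). The counts were the same, 8 and 1, without CEACAM1-S 2 and CEACAM1-L 4. They were 5 and 0 on the arrays of lower maximum signal, and 2 and 0 with scaling to the median. Fewer genes passed in these settings as a whole. Over all 8678 genes the counts were 318 and 279 on those arrays, and 116 and 159 with scaling.

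Promoter windows of Per1 and Ciart are shown as examples of clock genes higher in CEACAM1-L cells that hold known motifs of the oscillator. Not all such clock genes held one, and a link between motifs and the shared direction was not tested. RefSeq windows of build GRCm38.p6, from 250 bases before to 50 after a start, were searched on both strands for the E-box CACGTG and the D-box TTATGNAA, which overlapped in no window shown. Of 7 clock genes higher in CEACAM1-L cells with a window, 3 held an E-box (Per1, Ciart and Tef) and 2 a D-box (Per1 and Per3). Dbp, Nr1d1 and Csnk1e held neither in their windows, nor did another window of Per1 that is not shown. Among all 32851 windows, 7.15% held an E-box and 3.38% a D-box; a gene can have several windows, so these shares are per window. Capitals mark the motifs, 1 of each in Per1 and 3 E-boxes in Ciart.
Per1, chr11:69098699-69098998, plus strand: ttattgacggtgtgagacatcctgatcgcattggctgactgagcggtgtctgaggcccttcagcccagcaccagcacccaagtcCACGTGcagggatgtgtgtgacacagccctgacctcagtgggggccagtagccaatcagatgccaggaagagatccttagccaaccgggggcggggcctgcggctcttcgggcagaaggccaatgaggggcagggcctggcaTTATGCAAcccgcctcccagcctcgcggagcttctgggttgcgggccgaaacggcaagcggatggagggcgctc
Ciart, chr3:95882179-95882478, minus strand: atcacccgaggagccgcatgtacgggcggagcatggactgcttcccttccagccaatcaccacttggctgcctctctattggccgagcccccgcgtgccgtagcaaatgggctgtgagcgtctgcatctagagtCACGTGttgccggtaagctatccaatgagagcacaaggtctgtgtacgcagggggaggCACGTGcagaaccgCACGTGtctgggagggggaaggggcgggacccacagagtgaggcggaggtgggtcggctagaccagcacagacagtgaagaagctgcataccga

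Genes linked to the oxidant response factor NRF2 formed a further group. NRF2 binds antioxidant response elements and drives enzymes of glutathione synthesis, quinone reduction and xenobiotic conjugation. Of 37 tested, 12 were higher in CEACAM1-L cells (13.3% of all genes were) and 5 in CEACAM1-S cells, with a median of 0.19. Nqo1, the quinone reductase, read 9.68, 9.52, 9.55 and 9.07 in CEACAM1-L cells and 7.51, 8.18, 7.93 and 7.76 in CEACAM1-S cells, a difference of 1.61 ± 0.15 (SE, limma adjusted p = 3.78e-08), and of 1.85 without CEACAM1-S 2 and CEACAM1-L 4. Srxn1, sulfiredoxin, which restores oxidised peroxiredoxins, read 10.93, 10.74, 10.68 and 10.58 against 9.37, 9.44, 9.28 and 9.28, a difference of 1.39 ± 0.10 (adjusted p = 8.67e-10). The lines did not overlap for either, and no array left its group for Srxn1. Mgst1, a microsomal glutathione transferase, was detected on 1 of 4 CEACAM1-S arrays and differed by 1.66 ± 0.21 (adjusted p = 3.38e-06), and by 2.04 without those arrays.

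Gclm, the modifier subunit of the rate-limiting enzyme of glutathione synthesis, was higher in CEACAM1-L cells by 0.65 (adjusted p = 0.00021), and the glutathione transferases Gstt1, Gstm1, Gstp1 and Gsto1 by 0.62, 0.62, 0.44 and 0.39. Not all members went this way: the cystine transporter Slc7a11 (−0.57), Prdx4 (−0.53), Mgst3 (−0.53), Gstm2 (−0.39) and Gpx1 (−0.31) were higher in CEACAM1-S cells. Without CEACAM1-S 2 and CEACAM1-L 4 the counts were 11 and 4, on the arrays of lower maximum signal 6 and 0, and with scaling to the median 3 and 0. Over all 8678 genes, 318 and 279 passed on the arrays of lower maximum signal and 116 and 159 with scaling. An antioxidant response element core, TGACNNNGC on either strand, was present in a promoter window of 5 of the 12 higher genes, of 9 of 34 tested members with a window, and in 12.4% of all windows. Of the higher members with values given here, Nqo1, Gstt1, Gstm1, Gstp1 and Gsto1 held no match in any window. Gclm, Mgst1 and Srxn1 hold 1 match each, and the windows that hold it are shown with the match in capitals. Another window of Mgst1 held none, and the match of Srxn1 lies after the start.
Gclm, chr3:122245307-122245606, plus strand: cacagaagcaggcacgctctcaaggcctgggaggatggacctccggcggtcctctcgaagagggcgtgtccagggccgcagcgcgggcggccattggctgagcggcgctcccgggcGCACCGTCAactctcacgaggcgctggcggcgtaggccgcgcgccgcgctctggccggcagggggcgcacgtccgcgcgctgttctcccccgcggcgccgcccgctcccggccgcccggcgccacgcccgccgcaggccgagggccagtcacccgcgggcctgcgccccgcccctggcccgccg
Mgst1, chr6:138140277-138140576, plus strand: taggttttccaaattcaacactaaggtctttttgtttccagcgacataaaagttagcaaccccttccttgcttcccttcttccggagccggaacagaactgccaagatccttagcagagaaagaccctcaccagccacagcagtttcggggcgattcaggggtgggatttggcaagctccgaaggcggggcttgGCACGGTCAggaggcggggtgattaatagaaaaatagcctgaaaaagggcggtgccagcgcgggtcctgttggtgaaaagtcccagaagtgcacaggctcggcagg
Srxn1, chr2:152105274-152105573, plus strand: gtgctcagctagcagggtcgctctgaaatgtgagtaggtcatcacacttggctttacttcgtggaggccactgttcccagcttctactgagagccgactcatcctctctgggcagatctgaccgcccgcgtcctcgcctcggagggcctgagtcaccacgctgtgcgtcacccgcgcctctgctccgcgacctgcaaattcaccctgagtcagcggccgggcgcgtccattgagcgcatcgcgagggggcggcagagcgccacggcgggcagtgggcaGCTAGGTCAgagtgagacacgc

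Ribosome biogenesis genes showed the opposite direction. The list holds subunits of RNA polymerase I, the PeBoW complex, box C/D and H/ACA snoRNP proteins and other nucleolar assembly factors. Of 39 tested, 16 were higher in CEACAM1-S (12.8% of all genes were) and 1 in CEACAM1-L cells, and 6 of 39 had a positive difference, with a median of −0.31. Pes1, a PeBoW subunit needed for maturation of the large ribosomal subunit, read 7.22, 7.11, 7.14 and 7.28 in CEACAM1-S cells and 4.89, 4.95, 5.28 and 6.39 in CEACAM1-L cells. CEACAM1-L 4 was high for its line, control lay above both at 7.70, and Pes1 differed by 1.81 ± 0.25 (SE, limma adjusted p = 1.02e-05), and by 2.17 without the arrays that stood apart. Bop1, its partner in PeBoW, read 7.90, 8.09, 7.79 and 7.37 against 6.98, 6.58, 5.99 and 6.71 and was higher in CEACAM1-S cells by 1.22 (adjusted p = 5.62e-05), while its other kept probe did not differ past the threshold (0.12, adjusted p = 0.703). Polr1e, an RNA polymerase I subunit, read 9.29, 8.99, 9.12 and 9.41 in CEACAM1-S cells and 8.26, 8.04, 8.25 and 8.49 in CEACAM1-L cells, higher by 0.94 (adjusted p = 6.64e-06).

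Also higher in CEACAM1-S cells were Rrp12 (−0.88), the nucleolar protein nucleolin (Ncl, −0.86), the snoRNP proteins Nop58 (−0.77) and Nop56 (−0.53), Ppan (−0.69) and Polr1a (−0.45), and Wdr43 was the member higher in CEACAM1-L cells (0.36). The counts of 16 and 1 were the same without CEACAM1-S 2 and CEACAM1-L 4, and were 9 and 0 on the arrays of lower maximum signal and 2 and 0 with scaling to the median. Genes of DNA replication and mitosis, by contrast in size, had a median near 0: of 46 tested, 7 were higher in CEACAM1-L cells and 4 in CEACAM1-S cells, 23.9% against 26.0% of all genes. Among them the licensing factor Cdc6 read 6.51, 6.82, 7.10 and 7.46 in CEACAM1-L cells and 7.83, 7.94, 7.46 and 7.31 in CEACAM1-S cells, an overlap of the lines with a difference of 0.66 in favour of CEACAM1-S (adjusted p = 0.0133). The cyclin gene Ccnd1 was higher in CEACAM1-S cells by 0.70 (adjusted p = 4.07e-06), with its other 2 kept probes past the threshold in the same direction.

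**Figure D3:**
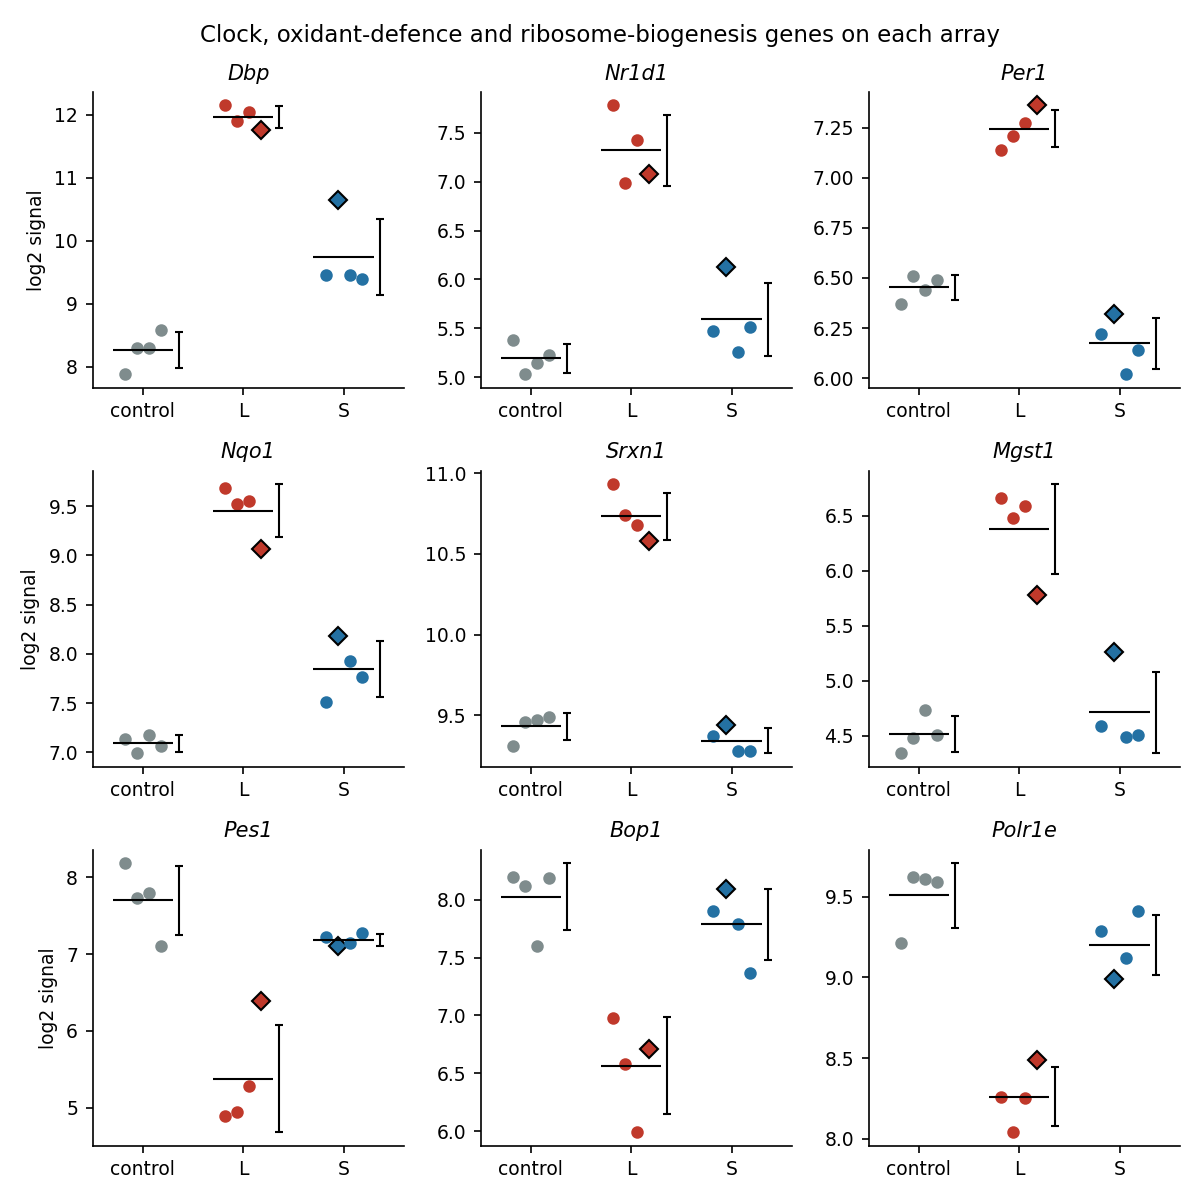
Log2 signal of clock genes (top row), oxidant-defence genes (middle row) and ribosome-biogenesis genes (bottom row) on each array of control, CEACAM1-L (L) and CEACAM1-S (S) cells; axes differ between panels and do not start at 0. Horizontal lines are means, bars are SDs (n = 4) and diamonds mark CEACAM1-L 4 and CEACAM1-S 2. CEACAM1-L arrays lie above CEACAM1-S arrays in the upper rows and below them in the bottom row.

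Interferons induce a broad set of antiviral effectors. Of 37 tested interferon-stimulated genes, 13 were higher in CEACAM1-L cells and 4 in CEACAM1-S cells (13.3% and 12.8% of all genes were), with a median of 0.12. Ifit3, an antiviral effector, read 8.40, 8.42, 8.54 and 8.30 in CEACAM1-L cells and 7.12, 7.61, 6.95 and 7.22 in CEACAM1-S cells, a difference of 1.19 ± 0.15 (SE, limma adjusted p = 4.85e-06), and its other kept probe gave 0.49, which did not pass. Irf9, an interferon regulatory factor, differed by 1.02 ± 0.15 (adjusted p = 3.76e-05), with its other probe at 1.00. Oasl2 (0.90), Ifitm3 (0.89), Rsad2 (0.87) and Trim25 (0.73) were higher in the same line.

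Samd9l, an antiviral and growth-restraining protein, went the other way and read 8.93, 8.56, 8.69 and 9.09 in CEACAM1-S cells and 7.41, 7.13, 7.08 and 7.52 in CEACAM1-L cells. The lines did not overlap, and Samd9l was higher in CEACAM1-S cells by 1.53 ± 0.16 (SE, limma adjusted p = 2.04e-07), as was the exonuclease gene Isg20 (−0.96, adjusted p = 0.00405). Interferon-inducible GTPases were divided as well, 2 and 2 of 8 (50% passed, against 26.0% of all genes). Gbp2 was higher in CEACAM1-S cells by 1.13 and Igtp higher in CEACAM1-L cells by 0.51. Of 25 class I antigen presentation genes, 5 were higher in CEACAM1-S cells and 1 in CEACAM1-L cells, with a median of −0.20; 24% of the list passed, against 26.0% of all genes. The 3 inducible subunits of the immunoproteasome were all among the 5: Psmb9 (0.89), Psmb10 (0.66) and Psmb8 (−0.27 as CEACAM1-L minus CEACAM1-S). With scaling to the median the interferon counts became 0 and 2 and the class I counts 0 and 0. Over all 8678 genes the counts were then 116 and 159.

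Cytokine and chemokine genes differed in both directions, 3 of 20 tested higher in CEACAM1-L cells and 6 in CEACAM1-S cells (45% of the list against 26.0% of all genes), with a median of 0.04. Ccl2, a monocyte chemokine, read 8.48, 8.59, 8.43 and 8.37 in CEACAM1-S cells and 7.0, 6.28, 6.77 and 7.96 in CEACAM1-L cells, with CEACAM1-L 4 close to the other line. Its difference was 1.46 ± 0.23 (SE, limma adjusted p = 4.43e-05), and 1.74 without CEACAM1-S 2 and CEACAM1-L 4. Ccl7 was higher in the same line by 1.31 ± 0.15 (adjusted p = 6.84e-07), as were Il34, a ligand of the CSF-1 receptor (−1.21), the neutrophil chemokine Cxcl1 (−1.15) and Csf1 (−0.64). Cxcl10, the interferon-inducible ligand of CXCR3, went the other way and read 9.92, 9.93, 10.26 and 9.44 in CEACAM1-L cells and 8.62, 8.61, 8.62 and 8.71 in CEACAM1-S cells, a difference of 1.25 ± 0.14 (adjusted p = 6.2e-07).

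Matrix genes differed by class. Of 13 tested collagens, 5 were higher in CEACAM1-S (12.8% of all genes were) and 1, Col4a2 (0.32), in CEACAM1-L cells, with a median of −0.27. Col6a2, a chain of the beaded-filament collagen VI, read 9.37, 8.97, 9.21 and 9.44 in CEACAM1-S cells and 8.09, 7.96, 8.03 and 8.59 in CEACAM1-L cells, a difference of 1.08 ± 0.14 (SE, limma adjusted p = 5.81e-06). Col6a1, its partner chain, differed by 0.82 and Col1a1, detected on 2 CEACAM1-L and 4 CEACAM1-S arrays, by 1.29, both higher in CEACAM1-S cells. Matrix glycoproteins were divided 5 and 5 of 19 (52.6% passed): the proteoglycan versican (Vcan, 1.21) and thrombospondin 2 (Thbs2, 1.04) were higher in CEACAM1-L cells, while Tgfbi (−0.81) and Sparc (−0.65) were higher in CEACAM1-S cells. Other kept probes of Vcan gave 0.83, which passed, and −0.03, which did not (adjusted p = 0.916).

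Matrix proteases and their inhibitors differed in both directions, 6 of 24 tested higher in CEACAM1-L cells and 3 in CEACAM1-S cells (37.5% of the list against 26.0% of all genes), with a median of 0.03. Mmp10, stromelysin 2, read 8.26, 8.22, 8.25 and 8.02 in CEACAM1-L cells and 6.02, 7.45, 6.15 and 6.34 in CEACAM1-S cells, with CEACAM1-S 2 nearest the other line, a difference of 1.70 ± 0.22 (SE, limma adjusted p = 4e-06) that was 2.08 without the arrays that stood apart. Mmp13, a collagenase detected on 1 CEACAM1-S array, differed by 1.39, and by 1.82 without them, and Mmp11, stromelysin 3, by 0.92. The gelatinase Mmp9 (−0.74) and the urokinase gene Plau (−0.79) were higher in CEACAM1-S cells, and the receptor of urokinase, Plaur (0.49), in CEACAM1-L cells. Among 11 integrins the counts were 2 and 2 (36.4% passed), with Itga5, the fibronectin receptor subunit, higher in CEACAM1-L cells by 0.98 (adjusted p = 1.48e-06) and Itgb4, the laminin receptor subunit of hemidesmosomes, higher in CEACAM1-S cells by 0.83. The other kept probe of Itgb4 gave −0.08 and did not pass (adjusted p = 0.815).

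**Figure D4:**
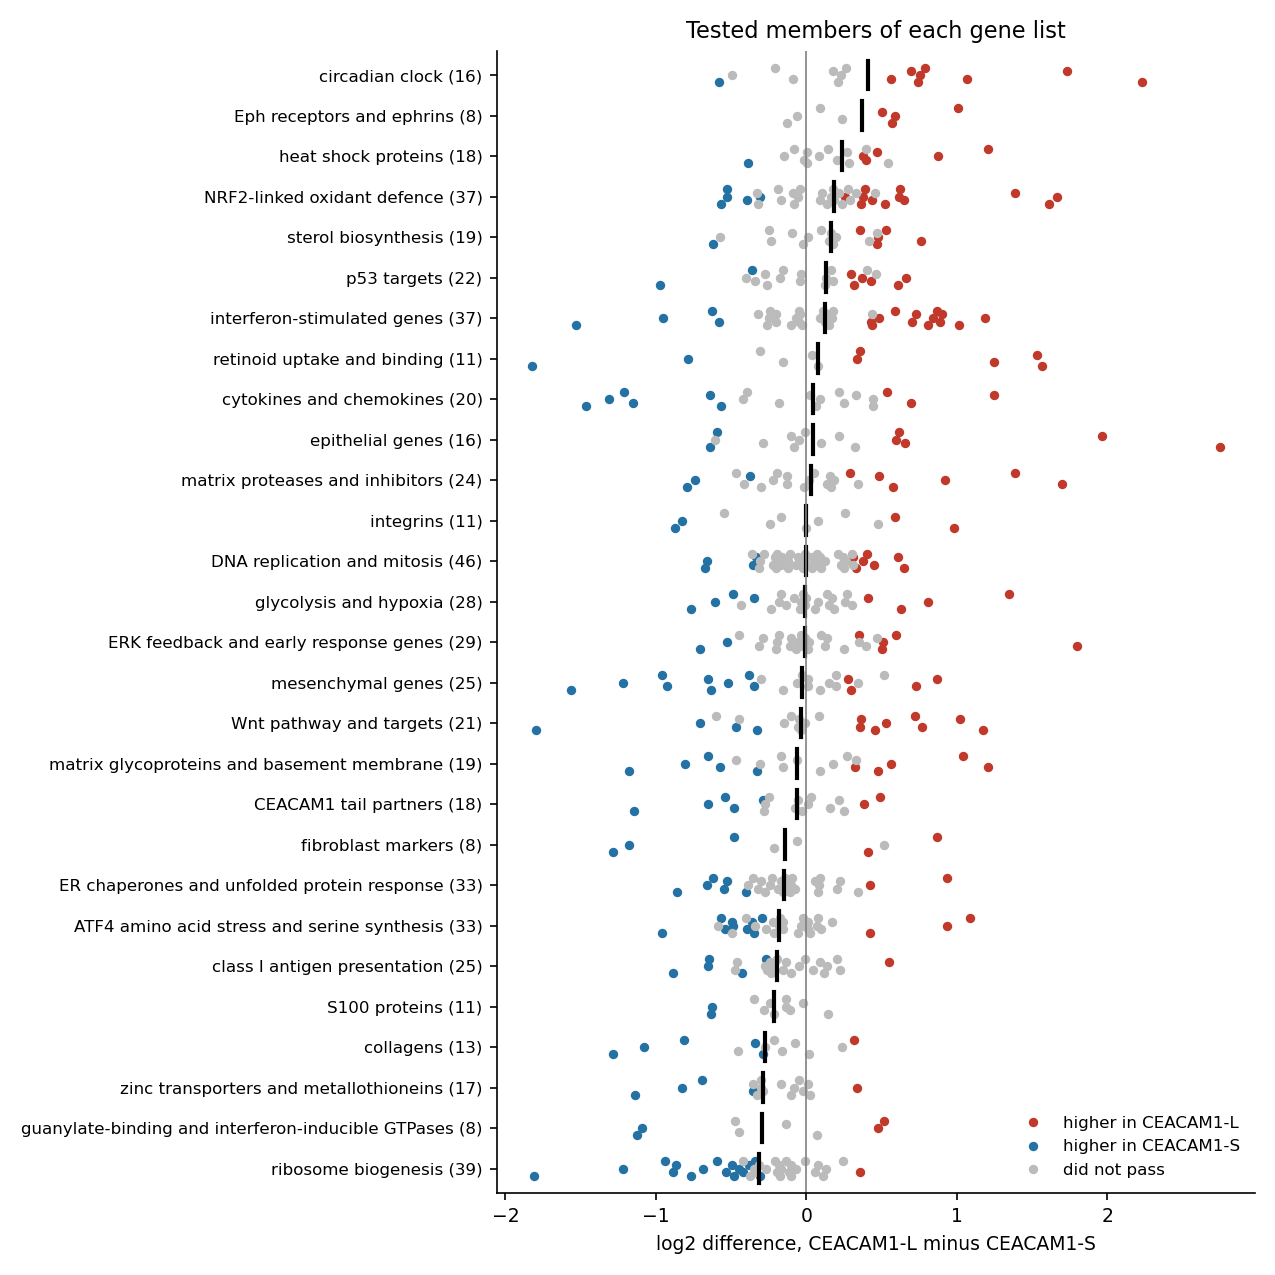
Log2 difference (CEACAM1-L minus CEACAM1-S, from the fit) of each tested member of the gene lists with at least 8 tested members, with the number tested in parentheses; vertical bars are list medians, and colour marks members past the threshold. The clock list has the highest median, 0.41, and the ribosome biogenesis list the lowest, −0.31.

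Of 25 tested genes of mesenchymal state and the TGF-β response, 9 were higher in CEACAM1-S cells and 4 in CEACAM1-L cells (12.8% and 13.3% of all genes were), while 12 had a positive difference. Off chromosomes 5 and 9 the counts were 5 and 2 of 20. Tgfbr2, the type II TGF-β receptor, read 12.21, 11.74, 12.09 and 12.18 in CEACAM1-S cells and 10.53, 10.53, 10.41 and 10.48 in CEACAM1-L cells. CEACAM1-S 2 was the lowest of its line and CEACAM1-L 4 lay within its own. The difference was 1.57 ± 0.10 (SE, limma adjusted p = 2.2e-10), though its other kept probe gave 0.30 and did not pass (adjusted p = 0.17). Snai2, a repressor of epithelial genes, was higher in CEACAM1-S cells by 1.22 ± 0.14 (adjusted p = 1.29e-06) and Smad3, a transducer of the receptor, by 0.96 ± 0.12 (adjusted p = 3.76e-06). Pdgfra (0.87) and Foxc1 (0.73) were higher in CEACAM1-L cells, and the list's median was −0.03.

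Epithelial genes were checked as the label of a colon cancer line would have them. Of 42 on the array, 16 were detected on no CEACAM1-L or CEACAM1-S array, among them Epcam, Krt18 and Krt19, and Cdh1 was detected on 3 CEACAM1-L and 2 CEACAM1-S arrays, while Krt8 was detected on all 8. Of 28 intestinal secretory and absorptive markers, 22 were detected on none of these arrays, Vil1 and Muc2 included, so most of the genes that define colonic epithelium were not detected in either line. Within the 16 epithelial genes tested, 5 were higher in CEACAM1-L cells and 2 in CEACAM1-S cells (43.8% passed, against 26.0% of all genes). Next to Cldn4, Cldn6, a claudin of embryonic epithelia, read 9.35, 9.51, 9.55 and 9.21 in CEACAM1-L cells and 7.48, 7.67, 7.22 and 7.39 in CEACAM1-S cells, without overlap (1.97 ± 0.12, limma adjusted p = 2.2e-10). Krt8 was higher in CEACAM1-L cells by 0.59 and Krt7 in CEACAM1-S cells (−0.64).

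Of 25 immune markers, 17 were detected on no array of either line, Ptprc, Cd3e, Itgam and Adgre1 among them, and the summed linear signal of the list was 2027 to 2364 in CEACAM1-L cells and 2513 to 3042 in CEACAM1-S cells. The tested immune markers that differed were Cd14, higher in CEACAM1-L cells by 0.75, and Ly6c1, higher in CEACAM1-S cells by 0.55. Fibroblast markers, relevant to the collagens, were summed at 2197 to 2367 in CEACAM1-L cells and 2296 to 2643 in CEACAM1-S cells. Of 14 on the array, Lum, Thy1, Fap, Postn and Dpt were detected on no array of either line. All CEACAM1-L arrays detected 5 and all CEACAM1-S arrays 7. Col3a1, Dcn, Pdgfra, Fbln1 and Gsn were detected throughout both lines. Endothelial markers were summed at 950 to 1075 and 1132 to 1240. Of 19 on the array, 10 were detected on no array of either line, Pecam1 and Vwf among them. All CEACAM1-L arrays detected 2 and all CEACAM1-S arrays 5, with Egfl7 and Cd34 detected throughout both lines. Of 5 tested members, 0 passed the threshold. The part of other cell types in the results was not tested.

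Genes of ERK feedback and of the Wnt pathway differed in both directions, with list medians of −0.01 and −0.04. Dusp4, a phosphatase induced by ERK that acts back on it, read 10.81, 10.73, 10.72 and 10.39 in CEACAM1-L cells and 8.59, 9.53, 8.65 and 8.70 in CEACAM1-S cells, a difference of 1.80 ± 0.16 (SE, limma adjusted p = 2.54e-08), 2.11 without the arrays that stood apart, shared in direction by its other 3 kept probes. Of 29 ERK feedback and early response genes, 5 were higher in CEACAM1-L cells and 2 in CEACAM1-S cells, with a median of −0.01, and 24.1% of them passed against 26.0% of all genes. These counts turned to 2 and 5 on the arrays of higher maximum signal, which leave out CEACAM1-S 2 and CEACAM1-L 4, and were 5 and 5 with array weights. Wnt genes divided 8 and 4 of 21 (57.1% passed, against 26.0% of all genes). The receptor Fzd7 (1.18), the ligand Wnt6 (1.02), the receptor Fzd5 (0.77) and the transcription factor Sox9 (0.53) were higher in CEACAM1-L cells. Wnt5a (−0.47), next to Dkk3, was higher in CEACAM1-S cells.

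Retinoid genes differed at the level of nuclear receptors and of uptake. Rxra, the common partner receptor, read 8.43, 8.46, 8.39 and 7.94 in CEACAM1-L cells and 6.61, 7.16, 6.36 and 6.83 in CEACAM1-S cells (1.56 ± 0.17, limma adjusted p = 3.08e-07, and 1.83 without the arrays that stood apart). Crabp2, which carries retinoic acid to its receptor, read 8.14, 8.13, 8.45 and 7.71 against 6.51, 6.67, 6.56 and 6.57 (1.53 ± 0.17, adjusted p = 5.92e-07), and the receptor gene Rarg differed by 1.25. Stra6, the uptake receptor, went the other way and read 8.03, 7.16, 7.90 and 8.19 in CEACAM1-S cells and 5.73, 5.62, 6.13 and 6.49 in CEACAM1-L cells, as did the retinol-binding protein gene Rbp2 (−0.79). Stra6 differed by 1.83, and by 2.21 without those arrays. In all 5 of 11 were higher in CEACAM1-L cells and 2 in CEACAM1-S cells (63.6% passed, against 26.0% of all genes), and 5 and 0 of 9 off chromosomes 5 and 9.

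Stress and metabolic lists had shares past the threshold from 24.2% to 36.4%, against 26.0% of all genes. Of 18 heat shock genes, 5 were higher in CEACAM1-L cells and 1 in CEACAM1-S cells (2 and 0 of 12 off chromosomes 5 and 9), with a median of 0.24, led by the small heat shock protein gene Cryab (1.21) and Hsph1 (0.88). Of 33 ATF4-linked genes, 3 and 9 were higher in CEACAM1-L and CEACAM1-S cells, with Ddit3, the stress factor CHOP (0.93), and the arginine transporter Slc7a1 (1.09) against Atf5 (−0.96) and the serine pathway enzyme Shmt2 (−0.49). Of 33 endoplasmic reticulum genes, 2 and 6 were higher, the list with the share of 24.2%, and the 6 included Xbp1 (−0.53) and the translocon subunit Sec61b (−0.62). Of 17 zinc transporters and metallothioneins, 4 were higher in CEACAM1-S cells, led by the zinc importer Slc39a4 (1.14), and 1 in CEACAM1-L cells, 29.4% in all with a median of −0.29. Glycolysis and hypoxia genes divided 4 and 4 of 28 (28.6%), with neuronal enolase (Eno2) higher in CEACAM1-L cells by 1.35 (adjusted p = 1.26e-07).

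Among p53 targets, 6 of 22 were higher in CEACAM1-L cells and 2 in CEACAM1-S cells, 36.4% of the list against 26.0% of all genes, with the cell-cycle inhibitor Cdkn1a (0.43) and Mdm2 (0.32) in the former and the death receptor gene Fas (0.97) in the latter. The other kept probe of Fas gave −0.02 and did not pass (adjusted p = 0.942). Sterol synthesis genes were higher in CEACAM1-L cells in 5 of 19 and in CEACAM1-S cells in 1 (31.6% passed), but these counts became 2 and 2 without CEACAM1-S 2 and CEACAM1-L 4. Of 11 tested S100 genes, 2 were higher in CEACAM1-S cells (12.8% of all genes were) and 0 in CEACAM1-L cells, 18.2% in all against 26.0%. These were S100a3 (0.63) and S100a4 (0.64), and the lines overlapped for S100a4. The water channel gene Aqp8, a marker of absorptive colonocytes, was higher in CEACAM1-L cells by 1.84 (adjusted p = 4.09e-07), with its other kept probe at 1.92. Of 28 intestinal secretory and absorptive markers on the array 3 were tested, and the other 2 did not pass.

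The differences were not spread evenly over the genome. Chromosome 5 held 598 tested genes, of which 178 (29.8%) were higher in CEACAM1-L cells and 28 (4.68%) in CEACAM1-S cells, with a median difference of 0.21. Chromosome 9 held 486, of which 17 (3.5%) were higher in CEACAM1-L cells and 183 (37.7%) in CEACAM1-S cells, with a median of −0.30. The medians of the other chromosomes lay between −0.07 and 0.06. Set beside control arrays, which both comparisons share, the chromosome 5 median was 0.29 in CEACAM1-L cells and 0.06 in CEACAM1-S cells, and the chromosome 9 median 0.09 and 0.39. Without CEACAM1-S 2 and CEACAM1-L 4 the medians between the lines were 0.21 for chromosome 5 and −0.36 for chromosome 9, and over 23 alternatives they ranged from 0.10 to 0.23 and from −0.40 to −0.17.

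Several genes named above lie on these chromosomes. Cldn4, Stbd1, Cxcl10, Pdgfra, Slc7a1 and Hsph1, higher in CEACAM1-L cells, lie on chromosome 5, and Nnmt, Stra6, Tgfbr2, Smad3 and Csk, higher in CEACAM1-S cells, on chromosome 9. Csn3 on chromosome 5 and Mmp10, Mmp13 and Cryab on chromosome 9 went against the lean of their chromosome. Off chromosomes 5 and 9, 7594 genes were tested and 957 were higher in CEACAM1-L cells and 897 in CEACAM1-S cells. The part of the chromosome-wide shifts in the difference of a single gene was not tested.

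Shorter stretches leaned as well. Chromosomes were divided into intervals of 20 Mb by gene position in GRCm38.p6, and 113 intervals with at least 20 tested genes lay off chromosomes 5 and 9. The highest median among them, 0.36, was in an interval of chromosome 2 that holds Olfm1 and Rxra, where 74 of 161 genes were higher in CEACAM1-L cells and 4 in CEACAM1-S cells. An interval of chromosome 1 followed at 0.25, with 20 of 55 genes higher in CEACAM1-L cells and 0 in CEACAM1-S cells. The lowest, −0.32, was in an interval of chromosome 4 that holds Polr1e, where 33 of 85 genes were higher in CEACAM1-S cells and 4 in CEACAM1-L cells. These intervals were singled out after their values were seen.

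**Figure D5:**
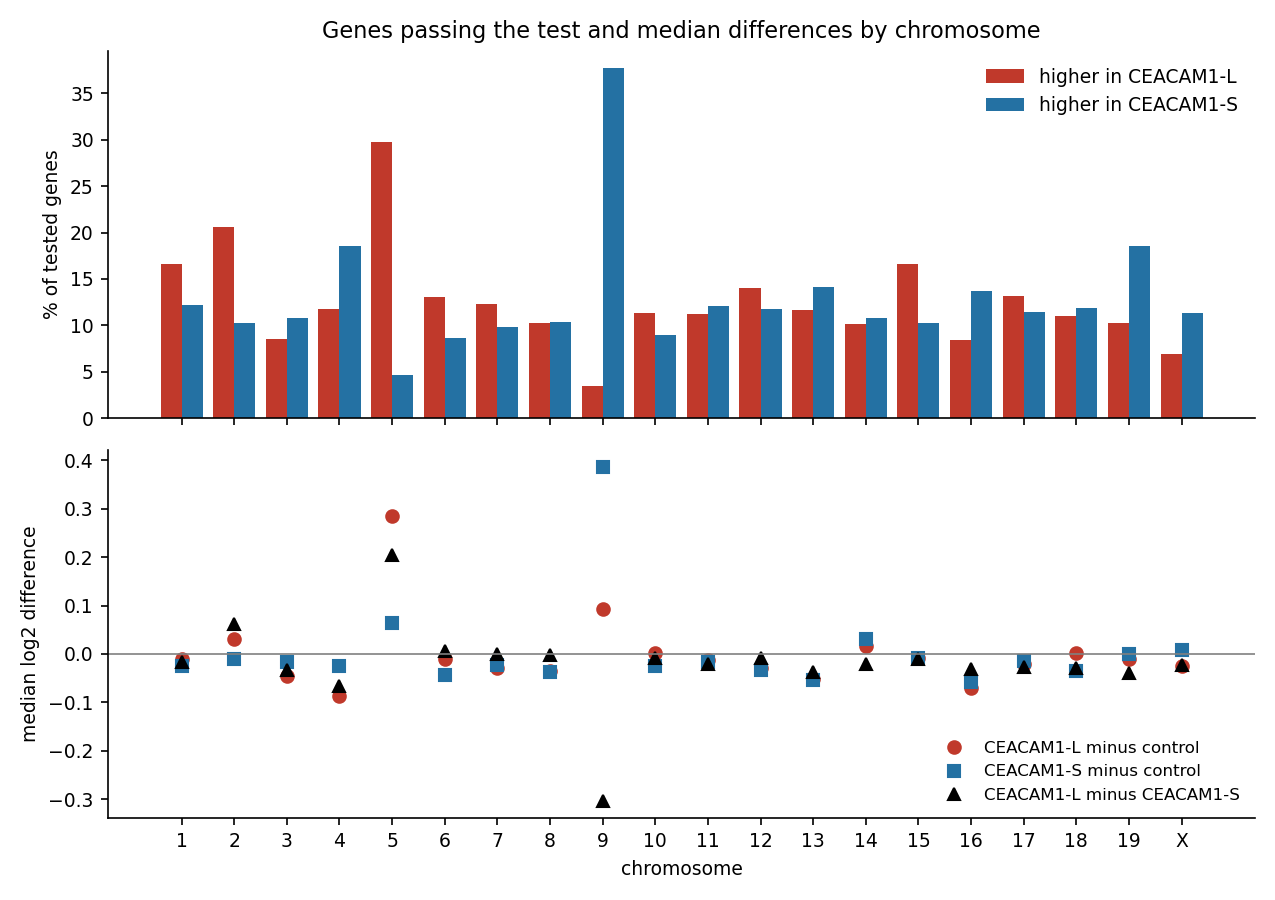
Upper panel, percentage of the tested genes of each chromosome that were higher in CEACAM1-L or in CEACAM1-S cells; lower panel, median log2 difference over the same genes between the lines and between each line and control. Chromosome 5 stands out with 29.8% higher in CEACAM1-L and chromosome 9 with 37.7% higher in CEACAM1-S cells.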

How the data were processed

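RNA from 12 samples was measured on Illumina mouse bead arrays, and groups and replicate numbers came from the sample titles. For each probe and array the deposited table gives an intensity and a detection p-value, per the file headers, with no background subtracted from the intensities (array minima 68.6 to 81.4). The series values deposited by the authors are log2 values whose array medians run from 7.06 to 7.08; their normalization method is not stated by the sources used here. As a tool, lumi 2.6.0 is named, per the submitters' processing notes, with no role.

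The function neqc of limma 3.58.1, run in R 4.3.3, inferred each array's background from its detection p-values, corrected for it by normexp with an added 16 units, and quantile-normalized all 12 arrays before log2. A probe was kept when at least 4 of the 8 CEACAM1-L and CEACAM1-S arrays gave it a detection p-value below 0.05. The model, fitted to all 12 arrays so that the 3 groups share a variance, had a mean for each group. CEACAM1-L minus CEACAM1-S was tested two-sided with eBayes, with a trend of variance on mean level (9 residual and 14.6 prior degrees of freedom). Every adjusted p-value is limma's, over all 15282 kept probes. The kept probe brightest over the 8 arrays stood for its gene. Of kept probes, 13247 had 1 symbol in the platform annotation; gene IDs of 34807 probes of the array matched the GRCm38.p6 reference table, which changed 0 symbols and gave the chromosomes. The number of arrays limits the precision. The fit was tested on simulated data.

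Where a line detected a probe on no array, the fold is "at least": the bright line's mean against a floor for the dim line, where each array counts as its lowest detected signal or the probe's signal, whichever was higher. Named genes were Ceacam1, Dcn and Epha2, the 12 largest non-overlapping differences each way, and up to 3 members per gene list; other members of a list are printed as the list's calls. The members and the 34 gene lists were chosen with earlier results of these data known, and lists are described by counts and medians beside all genes, without a list test.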

Additional observations from a re-analysis of the deposited data

Results flagged for a closer look

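Among 216 sets of 4 arrays of the named genes, 10 held an array whose gap to its nearest neighbour, as a share of the range of the set, exceeded Dixon's 95% critical value for 4 values, and chance gives about 1 such set in 20. CEACAM1-S 2 accounted for 5. It was high for Dbp (10.64 against 9.40 to 9.46, ratio 0.946), Serpinb9f (6.28 against 4.27 to 4.49, 0.894), Dusp4 (9.53 against 8.59 to 8.70, 0.883) and Mgst1 (5.26 against 4.49 to 4.59, 0.862), and low for Psmb10 (10.02 against 10.16 to 10.19, 0.844). CEACAM1-L 4 accounted for 4. It was high for Csn3 (8.59 against 7.15 to 7.24, 0.935), Nnmt (10.01 against 8.60 to 8.76, 0.893) and Btbd19 (8.88 against 7.38 to 7.60, 0.856), and low for Rxra (7.94 against 8.39 to 8.46, 0.864). All 9 values lay on the side of the other line. The remaining one was Cxcl10 on CEACAM1-S 4 (8.71 against 8.61 to 8.62, 0.871), where the whole range was small.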

How the results depend on the processing

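Direction was kept for Ceacam1 and every gene named by rule under all alternatives. Without background correction 78 probes and 57 genes differed at least 2-fold, and in the authors' processed values 65 and 48, against 380 and 254. With scaling to the median 431 probes and 275 genes passed, 42.2% of the genes higher in CEACAM1-L against 51%, and the median over all genes moved to −0.109. On the lower-signal arrays alone, 2 per line and control with CEACAM1-S 2 and CEACAM1-L 4 among them, 916 probes and 597 genes passed; the sets were made from the arrays' maximum raw signals. The cause of these moves was not tested. Leaving out 1 array at a time gave 2872 to 3723 probes, 343 to 471 probes at least 2-fold, 1825 to 2358 genes, 228 to 309 genes at least 2-fold, and Ceacam1 differences from −1.948 to −1.659. With the replicate number as a replicate block 3326 probes and 2120 genes passed. Same-numbered CEACAM1-L and CEACAM1-S samples had deviations from their group means correlated from −0.15 to −0.04. Whether same-numbered samples were cultured or processed together was not tested. Leaving out CEACAM1-S 2 and CEACAM1-L 4 together was chosen after seeing the data and gave 3550 probes; Ctnnb1, H2-Q8, Mvk, Podnl1 and S100a4 then no longer passed. Of named genes, 48 no longer passed with scaling to the median and 31 on the lower-signal arrays. Only 32.5 to 35.5% of probes were detected per array, and differences below that level could not be seen.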

Other observations

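Of 2035 kept probes without a single gene symbol 403 passed the threshold, a smaller share than the 23.6% of all kept probes. Presence on the arrays differed for a small set: 36 probes were detected on every CEACAM1-L array and no CEACAM1-S array, and 44 the reverse. Of 967 genes that passed and had more than 1 kept probe, 836 had every other kept probe on the same side, and 11 genes had probes past the threshold in both directions.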
